A study of Mus musculus with 11 samples.

Results

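The type 2 cytokine locus of mouse chromosome 11 carries Il4, Il13 and Il5, which encode the cytokines of type 2 immunity, together with Rad50 and Kif3a, the genes that lie between and beside them. ATAC-seq, which maps open chromatin by where a transposase can insert adapters, was performed on 4 sorted lymphoid populations, and a peak caller listed the accessible regions of each library. The members were the called peaks that overlapped any of the 5 gene bodies extended by 20 kb on each side. The 5 extended bodies joined into a single stretch of 197728 bp, chr11:53547379-53745106 in mm10. A peak shared between libraries was counted once: peaks with 1 bp or more in common became a single merged interval, which gave 13 intervals in the locus from 36 peaks, of 71400 intervals from 298164 peaks in all libraries.

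CD4SP and NKT came from thymus and CLP and ILCP from bone marrow, all labelled as strain C57BL/6. CD4SP thymocytes, the conventional CD4 single positive T cells, and NKT thymocytes, innate-like T cells isolated with a CD1d-αGalCer tetramer, gave 2 libraries each. Common lymphoid precursors (CLP), sorted as Lin- IL-7Rα+ cells with intermediate cKit and Sca-1 and high Flt3, gave 3 libraries, and innate lymphoid cell precursors (ILCP), sorted as Lin- IL-7Rα+ α4β7+ eGFP+ cells, gave 2. The eGFP of the ILCP sort reports Zbtb16 from a GFP-Cre reporter allele, which the CLP sort does not require, so the reporter and the cell type cannot be told apart in that comparison. Mice were 4 to 8 weeks old. NKT thymocytes hold several developmental stages and effector subsets that were not separated, and a site open in few cells cannot be told apart from a site weakly open in many.

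Type 2 cytokines are made by T helper cells of the Th2 type, by group 2 innate lymphoid cells, by NKT cells of the NKT2 subset and by mast cells, basophils and eosinophils. IL-4 directs Th2 differentiation and the switch of B cells to IgE, IL-13 acts on epithelium and mucus production, and IL-5 supports eosinophils. The 3 cytokine genes are controlled together in Th2 cells by GATA3 and by STAT proteins, through enhancers that are known in Il4 intron 2, in the stretch 3′ of Il4, in the stretch between Il4 and Il13, and in a locus control region within the 3′ introns of Rad50. RAD50 itself is a ubiquitous protein of DNA double-strand break repair, and KIF3A is a motor subunit that carries cargo along the microtubules of cilia.

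In the coordinate order of the locus, Kif3a (ENSMUSG00000018395.19, plus strand) ran from 53567379 to 53601967, Il4 (ENSMUSG00000000869.12, minus strand) from 53602982 to 53618669, Il13 (ENSMUSG00000020383.1, minus strand) from 53631324 to 53634702, Rad50 (ENSMUSG00000020380.16, minus strand) from 53649519 to 53707319 and Il5 (ENSMUSG00000036117.2, plus strand) from 53720794 to 53725106. The annotated Il4 body includes a long alternative transcript, Il4-202, that runs on past the 3′ end of the main cytokine transcript. The intervals are numbered 1 to 13 in this order, from the Kif3a start site to the far side of Il5.

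In both NKT libraries the locus was open at 5 intervals without a peak in either CD4SP library: interval 4 in the stretch 3′ of Il4, interval 6 in Il4 intron 2, interval 7 between Il4 and Il13, and intervals 9 and 10 within the 3′ introns of Rad50. Interval 5, also 3′ of Il4, had a peak in a single NKT and a single ILCP library. The sequence of interval 7 is not shown, and the 300 bp around its midpoint held no GATA motif as defined below. Sequences of intervals 4, 5, 6, 9 and 10 are shown because these intervals carry most of the difference between the NKT and CD4SP libraries and the only ILCP peaks near a cytokine gene. Each is the 300 bp around the interval midpoint on the plus strand of mm10 (the last 225 bp of it for interval 6), in lower case, with capitals at GATA motifs (AGATAA or TGATAA) on either strand.
interval 4, 3′ of the main Il4 transcript, chr11:53605671-53605970: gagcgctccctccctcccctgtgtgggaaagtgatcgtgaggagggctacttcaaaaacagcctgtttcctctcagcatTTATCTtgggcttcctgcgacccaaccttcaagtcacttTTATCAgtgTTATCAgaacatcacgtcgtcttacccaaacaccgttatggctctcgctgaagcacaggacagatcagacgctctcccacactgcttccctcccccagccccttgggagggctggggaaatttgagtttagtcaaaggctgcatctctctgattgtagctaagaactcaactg
interval 5, 3′ of the main Il4 transcript, chr11:53609651-53609950: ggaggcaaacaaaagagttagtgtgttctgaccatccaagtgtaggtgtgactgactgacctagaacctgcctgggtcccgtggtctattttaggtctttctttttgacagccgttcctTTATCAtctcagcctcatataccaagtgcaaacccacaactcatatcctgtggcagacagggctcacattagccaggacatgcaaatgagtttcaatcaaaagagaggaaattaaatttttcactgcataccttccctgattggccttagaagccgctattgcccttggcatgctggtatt
interval 6, Il4 intron 2, chr11:53617339-53617563: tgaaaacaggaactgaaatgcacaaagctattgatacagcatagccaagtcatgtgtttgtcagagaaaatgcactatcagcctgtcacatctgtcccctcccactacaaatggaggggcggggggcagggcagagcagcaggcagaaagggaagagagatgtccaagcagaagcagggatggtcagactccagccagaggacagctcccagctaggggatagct
interval 9, Rad50 intron 22, chr11:53655185-53655484: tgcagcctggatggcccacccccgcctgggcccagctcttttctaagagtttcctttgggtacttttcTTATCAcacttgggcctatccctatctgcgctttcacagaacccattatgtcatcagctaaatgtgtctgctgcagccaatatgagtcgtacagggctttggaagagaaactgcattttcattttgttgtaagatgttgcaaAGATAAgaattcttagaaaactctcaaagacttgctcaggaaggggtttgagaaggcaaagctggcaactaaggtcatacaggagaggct
interval 10, Rad50 intron 21, chr11:53656809-53657108: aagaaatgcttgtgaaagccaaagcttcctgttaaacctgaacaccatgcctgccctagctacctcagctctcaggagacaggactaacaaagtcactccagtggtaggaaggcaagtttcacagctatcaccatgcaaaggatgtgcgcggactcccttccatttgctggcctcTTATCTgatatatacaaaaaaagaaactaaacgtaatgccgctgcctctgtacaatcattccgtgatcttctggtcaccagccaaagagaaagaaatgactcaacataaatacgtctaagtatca

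The 9 libraries held between 19343 and 41535 peaks each, all with a peak caller score of at least 120. Read numbers per library and counts per peak were not in the deposited lists, so the depth behind a peak is unknown, no counting interval can be given, and the lack of a peak says only that none was called. CLP replicate 1, with 19343 peaks, stood below the other CLP libraries (41535 and 40136), and the ILCP libraries held 26328 and 25771. The thymic libraries held 33648 and 37909 (CD4SP) and 34701 and 38793 peaks (NKT). Start-site peaks of marker genes were read as a check of the labels. All 5 T-cell markers fixed for CD4SP, Cd4 and Cd3e among them, had one in every thymic library and 1 or 2 of 5 did in the bone marrow libraries. The start site of Zbtb16, which encodes the factor PLZF, had a peak in both NKT and both ILCP libraries, in CLP replicate 2 and in no CD4SP library, and that of Flt3 had one in all 5 bone marrow and no thymic library. The other markers separated the populations less well. Of the 5 NKT markers, 3 had a start-site peak in each CD4SP library and in NKT replicate 1 and 5 in NKT replicate 2: Il2rb and Cd3e had one in all thymic libraries, Slamf6 had one in both CD4SP libraries and not in NKT replicate 1, and Tbx21 had one in NKT replicate 2 alone. Of the 5 CLP markers, 4, 5 and 5 had one in the CLP libraries, 4 and 3 in ILCP, and 2 or 3 in each thymic library: Ebf1 had one in all 9 libraries, Il7r in all but ILCP replicate 2, Dntt had none in CLP replicate 1 and Kit had one in NKT replicate 2 as well as in all bone marrow libraries. Of the 5 ILCP markers, 4 or 5 had one in every library, thymic ones included, so this list does not set ILCP apart. None of 3 mast cell and basophil markers (Mcpt4, Fcer1a and Cpa3) had a start-site peak in any library. Of the myeloid markers, Itgam had one in the 4 thymic libraries and Csf1r in CLP replicate 3, and of the erythroid markers, Gata1 had one in 3 thymic libraries and Klf1 in none. The part of such cells in the results was not tested.

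CD4SP replicates 1 and 2 had 4 and 6 peaks in the locus, NKT replicates 1 and 2 had 8 and 13, CLP replicates 1 to 3 had 0, 1 and 1, and ILCP replicates 1 and 2 had 2 and 1. Every NKT library was above every CD4SP library, every thymic library was above every bone marrow library, and ILCP and CLP overlapped. The mean was 10.5 ± 3.54 peaks (SD, n = 2) in NKT and 5 ± 1.41 (SD, n = 2) in CD4SP, a difference of 5.5 with p = 0.333 in an exact two-sided permutation of the library labels, which is the smallest p that 2 against 2 libraries can reach. This difference rested on peaks of lower rank and on single libraries: it was 0.5 (exact permutation p = 1) with an equal number of peaks per library and 1 (p = 0.667) with the higher-scoring 50% of each library, and it was 3 without NKT replicate 2 and 8 without NKT replicate 1. ILCP had 1.5 ± 0.707 (SD, n = 2) and CLP 0.667 ± 0.577 (SD, n = 3), a difference of 0.833 (exact permutation p = 0.6, smallest possible 0.1). The difference between ILCP and CLP was 0 with the higher-scoring 50% of each library and -0.167 with gene bodies extended by 50 kb. It was 0.333 without ILCP replicate 1 and 1.33 without ILCP replicate 2. With both differences added and labels permuted within each tissue, the sum was 6.33 (exact permutation p = 0.1, smallest possible 0.0167), and it was 3.83 without NKT replicate 2 and 8.83 without NKT replicate 1. The difference between NKT and CD4SP exceeded that between ILCP and CLP by 4.67 peaks, with p = 0.333 in the exact permutation test. The replicates were described as biological replicates by the authors, and each p-value measures only the spread between these libraries.

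The 4 thymic libraries had 7.75 ± 3.86 peaks (SD) and the 5 bone marrow libraries 1 ± 0.707 (SD), a difference of 6.75 (exact permutation p = 0.00794, the smallest this design allows). With an equal number of peaks per library the difference was 3.05 (exact permutation p = 0.00794), and with the higher-scoring 50% it was 2.5 (exact permutation p = 0.0476). Tissue and cell type cannot be told apart in this comparison. The number of base pairs covered followed the same order, with 3182 and 5829 bp in CD4SP, 6227 and 12008 bp in NKT, 0, 1006 and 973 bp in CLP, and 1412 and 639 bp in ILCP. Relative to the size of the library, the locus held 1.19 and 1.58 of every 10,000 peaks in CD4SP, 2.31 and 3.35 in NKT, 0, 0.241 and 0.249 in CLP, and 0.76 and 0.388 in ILCP. On this scale every ILCP library was above every CLP library as well, and the sum of both differences, 1.85 peaks per 10,000, reached the smallest p of the design (exact permutation p = 0.0167). ILCP replicate 2 and CLP replicates 2 and 3 each had 1 peak in the locus. Their values on this scale differ only by the number of peaks in each library (25771, 41535 and 40136). The sum of peak numbers was 1 both with an equal number of peaks per library (exact permutation p = 0.467) and with the higher-scoring 50% of each library (exact permutation p = 0.667), so the smallest p was reached under this scaling and not under those settings.

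**Figure D1:**
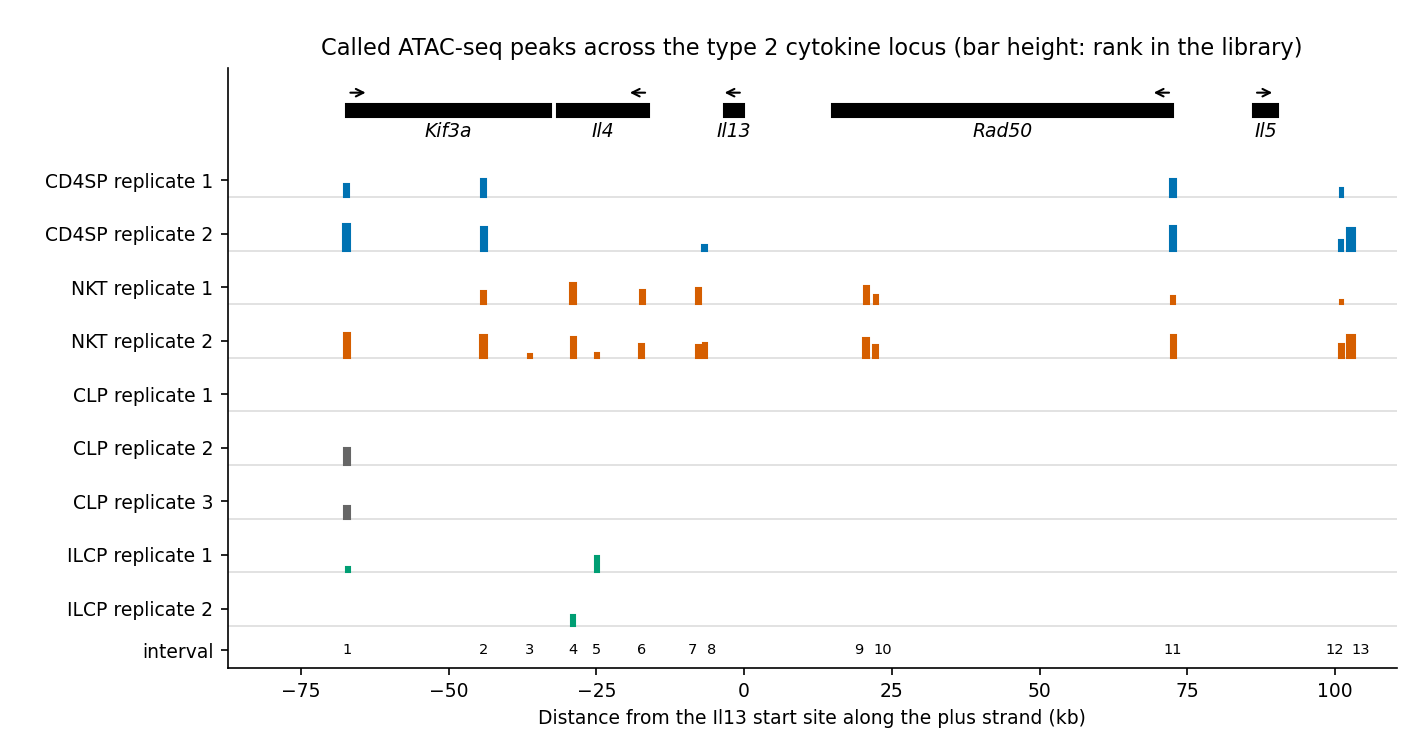
Position of every called peak in each of the 9 libraries (rows) against the distance from the Il13 start site along the plus strand in kb, with bar height for the rank within the library (taller is higher) and the 5 gene bodies as black boxes with arrows for their direction of transcription. The NKT rows carry peaks at intervals 4, 6, 7, 9 and 10 that both CD4SP rows lack, and the bone marrow rows are empty beyond interval 5.

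Of the 13 intervals, 5 were specific to NKT against CD4SP, meaning that they had a peak in both NKT libraries and in no CD4SP library. Over the genome 6.48% of the intervals with a peak in either thymic population were specific to NKT in this sense. The count in the locus fell to 1, interval 4, with an equal number of peaks per library and with the higher-scoring 50% of each library. No interval of the locus was specific to CD4SP (genome 5.21%), and of the 3 intervals with a peak in ILCP or CLP none was specific to ILCP (genome 8.67%) or to CLP (genome 8.18%). Intervals 6, 7, 9 and 10 had a peak in each NKT library and nowhere else, a pattern held by 1.96% of all intervals. Intervals 2, 11 and 12 had a peak in all 4 thymic libraries and in no bone marrow library (genome 7.04%). Peaks in thymic libraries alone made up 10 of the 13 intervals (genome 27%), and no interval was found in bone marrow libraries alone (genome 33.6%) or in all 9 libraries (genome 13.3%). Every interval had a peak in at least 1 NKT library (genome 57.1%), 6 had one in CD4SP (46.2%, genome 55.6%), 3 in ILCP (genome 40.7%) and 1 in CLP (genome 62.4%), so the share with a CD4SP peak was close to that of all intervals. Neighbouring intervals share their libraries and are not independent of each other, so these shares are descriptions.

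The rank of a peak within its library is given as the upper percent, the position of the peak among all peaks of the library ordered from the highest score, as a percent of their number, so that a low value is a high rank. Peaks of the locus were of middle to low rank. The best upper percent was 55.3% and 31.2% in the CD4SP libraries, 47.8% and 37.9% in NKT, 61.1% and 72.8% in CLP replicates 2 and 3, and 63.7% and 78.8% in ILCP. In NKT replicate 1 the highest peak was at interval 4, a cytokine interval, whereas in CD4SP replicate 2 and NKT replicate 2 it was at the Kif3a start site and in CD4SP replicate 1 at the Rad50 start site.

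**Figure D2:**
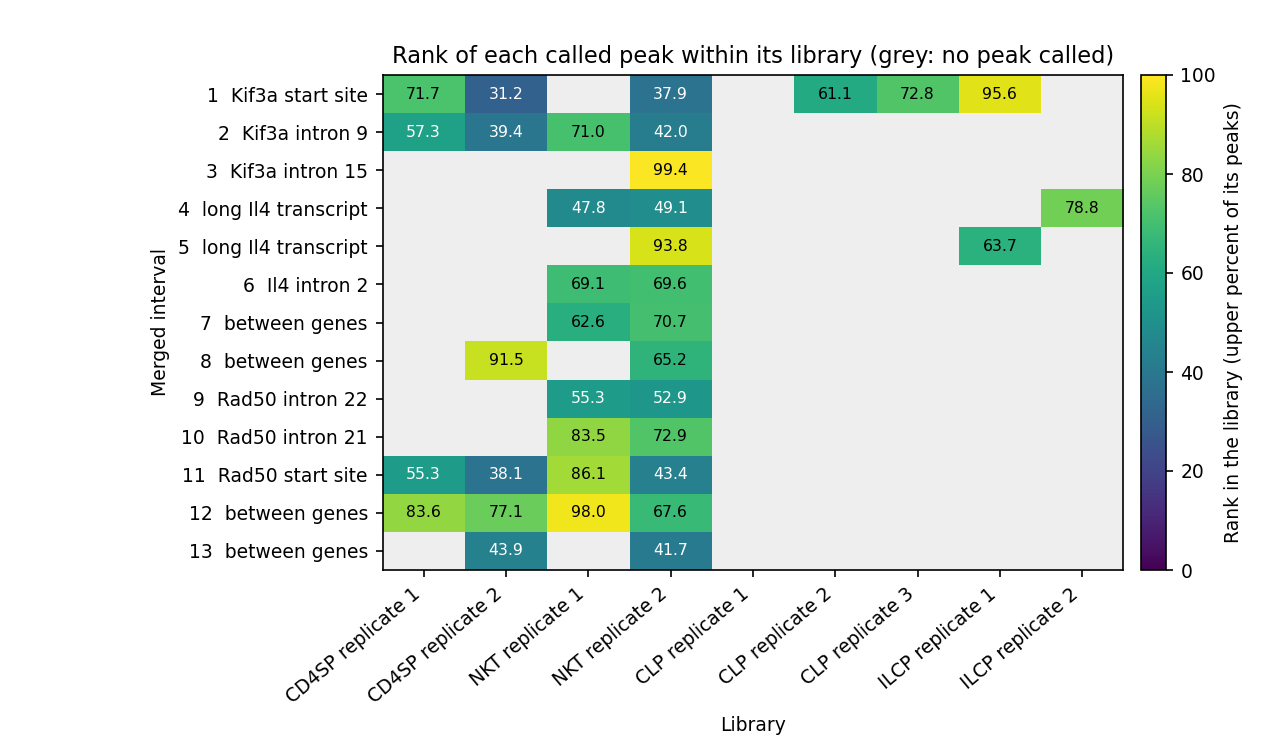
Rank of each called peak (number and colour, upper percent of the library's peaks, where a lower value is a higher rank) for the 13 intervals (rows) in the 9 libraries (columns), with grey where no peak was called. Ranks run from 31.2% at the Kif3a start site in CD4SP replicate 2 to 99.4% at interval 3 in NKT replicate 2.

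Il4 had the most intervals in its window, 7. Peaks in the Il4 window numbered 1 and 2 in CD4SP, 4 and 7 in NKT, 0, 0 and 0 in CLP, and 1 and 1 in ILCP. Both NKT libraries lay above both CD4SP libraries, and both ILCP libraries above all CLP libraries. The CD4SP peaks of this window were at interval 2, in Kif3a, and at interval 8, on the Il13 side, and not within Il4. NKT exceeded CD4SP by 4 peaks (5.5 ± 2.12 against 1.5 ± 0.707, SD, n = 2 each, exact permutation p = 0.333), and ILCP exceeded CLP by 1 peak (1 ± 0 against 0 ± 0, SD, n = 2 and 3, exact permutation p = 0.1), the smallest p in both designs. The sum of both differences was 5 peaks (exact permutation p = 0.0167, the smallest possible) and did not pass after Benjamini-Hochberg adjustment over all 21938 protein-coding genes (adjusted p = 1). Of all gene windows, 1.45% had an exact p at or under 0.05 with a higher sum. This unadjusted result depended on CD4SP replicate 1, on the peaks of low rank and on the window size. The sum was 4.5 (exact permutation p = 0.133) without CD4SP replicate 1 and 1 (p = 0.2) with an equal number of peaks per library. With gene bodies extended by 50 kb it was 6.33 (exact permutation p = 0.1). Without any one of CLP replicates 1 to 3 the sum stayed at 5, and its exact permutation p of 0.0556 was the smallest that the remaining libraries allow.

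Interval 4 (chr11:53605332-53606309) lay 12849 bp from the Il4 start site, past the 3′ end of the main transcript and in an intron of the long one. It had the highest-ranked peaks of any NKT-specific interval, at 47.8% and 49.1% in the NKT libraries, and a lower-ranked peak at 78.8% in ILCP replicate 2. Its 300 bp held 3 GATA motifs, more than any other interval of the locus. Interval 5 (chr11:53609400-53610201), 8869 bp from the Il4 start and over an exon of the long transcript, had a peak at 93.8% in NKT replicate 2 and at 63.7% in ILCP replicate 1. Intervals 4 and 5 were thus the only intervals with peaks in NKT and ILCP and in neither control population, a class that held 1.4% of all intervals, each in a different ILCP library. Neither interval was open in both ILCP replicates, and so neither met the rule for an ILCP-specific interval.

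Interval 6 (chr11:53616942-53617884) lay within Il4 intron 2, 1256 bp from the Il4 start site, and covered the start sites of the alternative transcripts Il4-202 and Il4-204. It was called in the NKT libraries alone, at closely similar ranks of 69.1% and 69.6%. The RefSeq promoter window of the main Il4 start (300 bases around it, chr11:53618616-53618915) had no peak in any library, and the window of the alternative start (chr11:53617289-53617588) had one in both NKT libraries. Of 32851 listed promoter windows, 54.9% had no peak in any library, and between 25.3% and 39.6% had one in a given library.

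Il13 had no peak over its body or its promoter window (chr11:53634653-53634952) in any library. Its window held 0 and 1 peaks in CD4SP, 2 and 3 in NKT, and none in the 5 bone marrow libraries. NKT exceeded CD4SP by 2 peaks (2.5 ± 0.707 against 0.5 ± 0.707, SD, n = 2 each, exact permutation p = 0.333). The sum of both differences in this window was also 2. It was 0 with an equal number of peaks per library, with the higher-scoring 50% of each library and within the gene body alone. With an extension of 50 kb it was 7. Interval 7 (chr11:53626487-53627453), between Il4 and Il13 and 7732 bp from the Il13 start, was called in both NKT libraries at 62.6% and 70.7% and nowhere else. Interval 8 (chr11:53627671-53628436), 6649 bp from the same start, was called in the second replicates of CD4SP and NKT, at 91.5% and 65.2%. These were the thymic libraries with more peaks, and whether interval 8 differs between CD4SP and NKT is not detectable from such calls.

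Rad50 held 3 intervals with 2 distinct patterns. At its start site, interval 11 (chr11:53706749-53707836) was called in all 4 thymic libraries, at 55.3% and 38.1% in CD4SP and at 86.1% and 43.4% in NKT, and in no bone marrow library. Near its 3′ end, interval 9 (chr11:53654798-53655870, intron 22, over an exon) was called at 55.3% and 52.9% in the NKT libraries, and interval 10 (chr11:53656539-53657377, intron 21) at 83.5% and 72.9%, both without a peak elsewhere. These intervals lay 20632 bp and 22256 bp from the Il13 start site. Between interval 10 and the Rad50 start site no library had a peak over 49371 bp, the longest stretch between 2 neighbouring intervals of the locus, against a median of 7740 bp between the midpoints of neighbouring intervals. The Rad50 window counted 1 and 1 peaks in CD4SP, 3 and 3 in NKT and none in bone marrow, a difference of 2 between NKT and CD4SP (3 ± 0 against 1 ± 0, SD, n = 2 each, exact permutation p = 0.333). The sum of both differences in this window was also 2. It was 0 with an equal number of peaks per library and with the higher-scoring 50% of each library.

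Il5 was the cytokine gene without a difference between NKT and CD4SP. Its window held 2 and 3 peaks in CD4SP, 2 and 3 in NKT, and none in any CLP or ILCP library, so that NKT and CD4SP had the same mean of 2.5 ± 0.707 (SD, n = 2 each, exact permutation p = 1). Its promoter window (chr11:53720544-53720843) and body had no peak, and the Rad50 start site, interval 11, was counted in its window. Interval 12 (chr11:53735321-53736297), 15015 bp past the Il5 start, was called in all 4 thymic libraries at low ranks, 83.6% and 77.1% in CD4SP and 98% and 67.6% in NKT. Interval 13 (chr11:53736746-53738077), 16617 bp past it, was called in the second replicates of CD4SP and NKT, at 43.9% and 41.7%. With 2 libraries a group, this design does not show that CD4SP and NKT are alike at Il5.

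Kif3a combined a start site shared between tissues with an intron peak of thymocytes. Interval 1 (chr11:53566896-53568072) covered its start site, and that of the noncoding gene A430108G06Rik on the other strand, and was the only interval with a peak in CLP. It was called at 71.7% and 31.2% in CD4SP, at 37.9% in NKT replicate 2, at 61.1% and 72.8% in CLP replicates 2 and 3, and at 95.6% in ILCP replicate 1. NKT replicate 1, CLP replicate 1 and ILCP replicate 2 had no peak there, so this start site separated none of the populations. Interval 2 (chr11:53590016-53591124), in intron 9, was called in all thymic libraries, at 57.3% and 39.4% in CD4SP and 71% and 42% in NKT, and interval 3 (chr11:53598121-53598752), in intron 15, was called in NKT replicate 2 alone, at 99.4%. The Kif3a window held 2 and 2 peaks in CD4SP, 3 and 6 in NKT, 0, 1 and 1 in CLP, and 2 and 1 in ILCP. It reaches into Il4, and intervals 4, 5 and 6 were counted in it: within the gene body alone, the sum of both differences was -0.167 (exact permutation p = 0.967) where it was 3.33 (p = 0.1) in the whole window. The sum in the whole window was 1.83 without NKT replicate 2 and 4.83 without NKT replicate 1. Of the other genes that overlap the locus, Sept8, Rps2-ps4, Gm22275, Gm12214 and Gm12213 had no interval in their bodies within it.

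**Figure D3:**
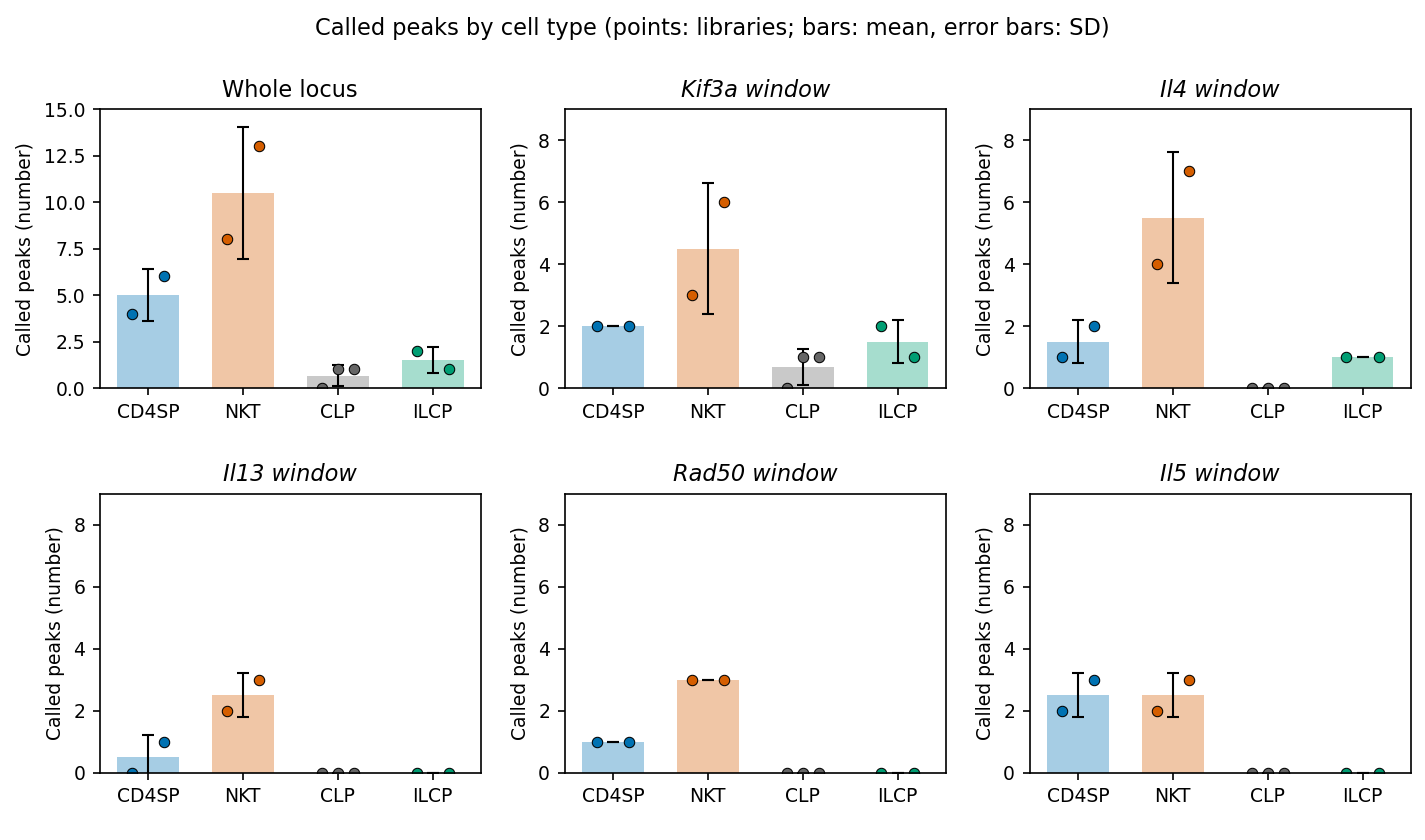
Number of called peaks in the locus and in each gene window by cell type, with a point for each library, bars for the mean and error bars for the SD (n = 2, 2, 3 and 2 libraries for CD4SP, NKT, CLP and ILCP). NKT points lie above CD4SP points in every panel but Il5, where both hold 2 and 3 peaks.

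In all, 4 of the 5 windows had more peaks in every NKT than in every CD4SP library, where 7.14% of all gene windows did. With an equal number of peaks per library none of the 5 windows did, and NKT replicate 1 then kept peaks at intervals 4 and 9 alone. The Il4 window was the only one with more peaks in every ILCP than in every CLP library (all genes 3.66%). The windows of Rad50 and Il5 had more peaks in every thymic than in every bone marrow library (all genes 10.3%). The differences between thymus and bone marrow were 2.25 peaks for Kif3a, 3.1 for Il4, 1.5 for Il13, 2 for Rad50 and 2.5 for Il5, against a median of 0.05 over all genes. Their exact permutation p-values were 0.0317, 0.0238, 0.0476, 0.00794 and 0.00794. After Benjamini-Hochberg adjustment over all genes none of these exact permutation p-values passed (adjusted p = 0.178, 0.154, 0.192, 0.0765 and 0.0765), and 19.1% of all gene windows had an unadjusted p at or under 0.05 in this direction. Neighbouring windows overlap and share intervals, so the 5 counts are not independent. The Il4 window held 3 NKT-specific intervals, and 0.556% of all genes had as many or more. The Kif3a, Il13 and Rad50 windows held 2 each, as many as or more than which were found in 2.25% of genes. The Il5 window held none, as did 19420 of 21938 genes.

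GATA motifs were found in the 300 bp windows of intervals 4, 5, 9 and 10, with 3, 1, 2 and 1 matches as capitalised above, and in no window of an interval with a CD4SP peak. GATA3 is the factor that directs type 2 cytokine expression. This made 4 of 13 intervals and 3 of the 5 NKT-specific ones, where 23% of all intervals and 34% of all NKT-specific intervals held the motif. Runx motifs (TGTGGT) were found once each in intervals 2, 7 and 8, 3 of 13, where 32.1% of all intervals held one. A STAT5 motif (TTC and GAA with 3 bases of any kind between) was found in intervals 6 and 9, where 8.75% of all intervals held it, and a STAT6 motif, with 4 bases between, in none (all intervals 7.4%). An AP-1 motif (TGANTCA) was found in intervals 2, 10 and 13 (all intervals 9.64%) and an NFAT motif (GGAAAA) in interval 2 (all intervals 21.5%). All motifs were searched on both strands, and matches of different motifs may overlap. The promoter windows of the main Il4 start and of Il13, which had no peak in any library, held 1 GATA match each. A match does not show that a factor is bound, and with so few intervals no share was tested. The start-site intervals 1 and 11 stood apart in base composition, with a GC content of 71% and 65.7% and 32 and 31 CpG dinucleotides in their windows, whereas the 5 NKT-specific windows had a GC content of 44.3% to 54% (median 51.7%, all NKT-specific intervals 47%) and 1 to 11 CpG.

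Beyond the locus, on the Il5 side, the next interval (chr11:53754656-53755516) lay 9550 bp outside and was called in the second replicates of CD4SP and NKT. The one after it (chr11:53762848-53764616), 17742 bp outside, was called in 8 libraries with bone marrow among them, and the interval over the Irf1 start site (chr11:53769329-53771109) in 7. On the Kif3a side the nearest interval was 27121 bp outside (chr11:53519585-53520258) and was called in CLP replicate 2 alone. The next on that side (chr11:53516472-53517531), 29848 bp outside, was called in CD4SP replicate 2 and in NKT replicates 1 and 2 alone. On the Il5 side an interval 40151 bp outside (chr11:53785257-53786131) was called in CD4SP replicates 1 and 2 alone. Neighbouring intervals on both sides thus included some with bone marrow peaks and some without.

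A list of 30 other genes of type 2 cytokine expression, its signals and its repression was read in the same windows of 20 kb on each side. At least 1 NKT-specific interval was found for 8 of the 30 (all genes 11.5%), a CD4SP-specific one for 7 (all genes 8.37%), an ILCP-specific one for 7 (all genes 13.8%) and a CLP-specific one for 10 (all genes 16.4%). The median was 0 in the list and over all genes in each class. More peaks in every NKT than in every CD4SP library were counted for 3 genes of the list, Il2, Icos and Maf (all genes 7.14%), and more in every ILCP than in every CLP library for 2, Il1rl1 and Maf (all genes 3.66%). Il2, Icos and Maf are named here because of these counts, after their values were seen.

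Of the list, Rora, which encodes a nuclear receptor required for group 2 innate lymphoid cells, had 3 NKT-specific, 2 CD4SP-specific, 2 CLP-specific and 0 ILCP-specific intervals in a gene of 734461 bp, with 14 and 18 peaks in CD4SP and 16 and 20 in NKT. Il17rb, a receptor subunit for IL-25, had 1 NKT-specific, 1 ILCP-specific and 1 CLP-specific interval, and Ccr4, a chemokine receptor of Th2 cells, had 1 NKT-specific and 1 ILCP-specific interval. Il1rl1, the IL-33 receptor, also had 1 of each. Its peaks numbered 3, 4 and 3 in CLP and 6 and 5 in ILCP, so the populations did not overlap. Irf4, a transcription factor of Th2 cells, had 2 ILCP-specific intervals and no NKT-specific one, with 3, 3 and 4 peaks in CLP and 5 and 4 in ILCP, which overlap. Gata3 had no specific interval in any population, with 6 and 7 peaks in CD4SP, 7 and 6 in NKT, 5, 8 and 8 in CLP and 5 and 3 in ILCP.

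**Figure D4:**
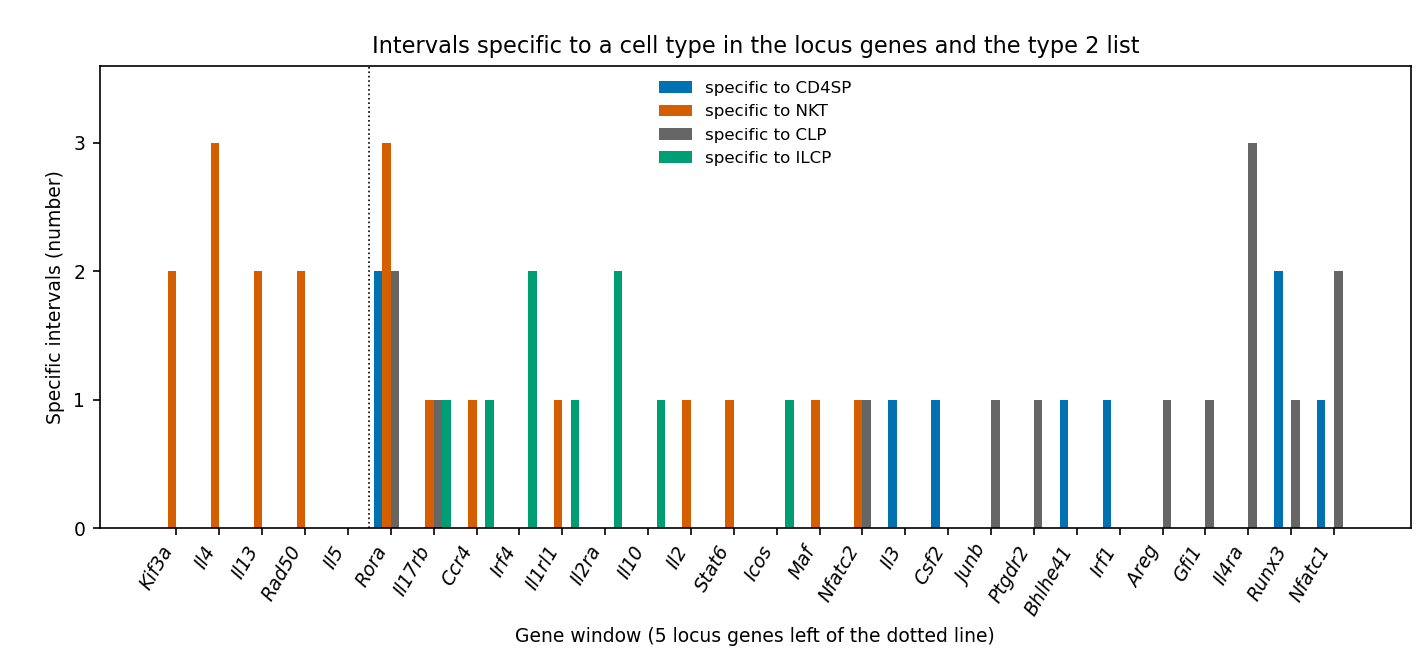
Number of intervals specific to each cell type (bars, CD4SP against NKT and CLP against ILCP) in the window of each locus gene, left of the dotted line, and of the genes of the type 2 list with at least 1 such interval, right of it. The locus genes show NKT-specific intervals alone, 3 for Il4 and 2 each for Kif3a, Il13 and Rad50, whereas the list holds intervals specific to each of the 4 populations.

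The genes whose peak numbers over the 9 libraries were most like those of the locus, among 13729 protein-coding genes with at least 10 peaks in all, were Lad1, Gna12 and Pinx1 (Pearson r = 0.99 each over 9 libraries) and Fibcd1 (r = 0.98). Fibcd1 had 2 and 3 peaks in CD4SP, 3 and 6 in NKT and none in bone marrow. Gna12 had 3 and 4 in CD4SP, 6 and 8 in NKT, 1, 2 and 2 in CLP, and 2 and 1 in ILCP. The points share libraries and the number of peaks in each, and the correlations are descriptions of these 9 libraries.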

How the data were processed

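ATAC-seq libraries of CD4SP (2), NKT (2), CLP (3) and ILCP (2) were grouped by their labels. Reads of 50 bp had been aligned to mm10 with bowtie, at up to 2 mismatches, and the authors called peaks with MACS per library, without pooling. The labels also name Picard and HOMER. The MACS version and settings, duplicate removal and any shift of read ends are not given in the sources used here. The deposited lists hold positions and a score, used here only as a rank within a library. Runx1 chromatin immunoprecipitation and input were not analysed here.

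Peaks were merged and annotated with GENCODE M21 in Python 3.11.15 (numpy 2.4.6, pandas 2.3.3, scipy 1.17.1, statsmodels 0.14.6, pysam 0.24.0), and RefSeq promoters (GRCm38.p6) matched Kif3a, Il4, Il13 and Il5. Peak numbers were compared by exact two-sided permutation of library labels. Adjustment was planned over the 5 windows and made over all 21938 protein-coding genes instead. Merging, the call of specific intervals and the permutation test were tested on simulated data, and the motif search was not.

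The members and lists were chosen with earlier results of these data known. Named genes were the 5 members, other genes overlapping the locus, the 5 genes of the type 2 list with the most NKT- or ILCP-specific intervals (ties from the shortest), and the 5 genes most correlated with the locus. Some of the genes and sequences so chosen are not reported here. Gata3 and the genes under other observations fall outside this rule and were named after their values were seen. Alternatives were fewer peaks by score, other window sizes, RefSeq bodies, scaling, a replicate block, peaks in any library of a type, and each library left out.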

Additional observations from a re-analysis of the deposited data

How the results depend on the processing

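Of 236 alternative values, 197 kept their direction and their side of the threshold or moved little, 10 lost the threshold, 4 reached it, 23 moved and 2 reversed. The 197 do not measure stability. NKT minus CD4SP and ILCP minus CLP cannot reach 0.05 (smallest exact permutation p 0.333 and 0.1). Their values counted as kept whenever the direction held, as when NKT minus CD4SP in the locus fell from 5.5 to 0.5. With an equal number of peaks per library (19343) the sum of both differences was 1 for Il4 (exact permutation p = 0.2), 0 for Il13 and Rad50 and -0.5 for Il5, with 1 NKT-specific interval and 7 intervals left in the locus. With the higher-scoring 50% of each library it was 1 for Il4 (exact permutation p = 0.667) and 0 for Il13 and Rad50, with 1 NKT-specific interval and 5 intervals, and ILCP minus CLP was 0. These settings remove peaks by rank, and interval 4 was the NKT-specific interval that kept its peaks in both NKT libraries. With 33648 peaks in each thymic and 19343 in each bone marrow library, an alternative chosen after seeing the data, all 5 NKT-specific intervals kept theirs, with 4 for Il4 (exact permutation p = 0.0667) and -0.5 for Il5. Extension by 50 kb gave 6.33 for Il4 (exact permutation p = 0.1), 7 for Il13 (p = 0.0167), 6.5 for Rad50 (p = 0.0167), -0.667 for Il5 and -0.167 for ILCP minus CLP over the locus. At 50 kb the Il13 and Rad50 windows also take in intervals 4 and 5, 3′ of Il4. These lay 25504 and 21524 bp from the Il13 end and 43699 and 39719 bp from the Rad50 end. Gene bodies alone gave 0 for Il13 and -0.167 for Kif3a. Per 10,000 peaks the sums were 1.85 for the locus (exact permutation p = 0.0167), 1.06 for Kif3a (p = 0.0167) and -0.018 for Il5, and base pairs covered gave -39 for Il5. With intervals open in any library of a type, 2 were ILCP-specific. The cause of these changes was not tested beyond what the settings remove. Without single libraries the Il4 sum ran from 3.5 to 6.5, losing the threshold without CD4SP replicate 1 (4.5, exact permutation p = 0.133). Without any CLP replicate it stayed at 5, with the smallest exact permutation p that is then possible (0.0556). Likewise without single libraries, the Il5 sum ran from -0.5 to 0.5, CD4SP-specific intervals from 0 to 1 (1 without NKT replicate 2) and ILCP-specific ones from 0 to 1 (1 without either ILCP replicate). NKT minus CD4SP in the locus was 3 without NKT replicate 2, 8 without NKT replicate 1 and 4.5 without CD4SP replicate 1, and ILCP minus CLP ran from 0.333 to 1.33. Replicate numbers were shared names: the deviations of same-numbered libraries correlated at r = 0.49 over 21938 genes for NKT and CD4SP and at -0.04 for ILCP and CLP. With the replicate block, the Il4 sum of 5 had an exact permutation p = 0.125 and thymus minus bone marrow of 6.75 had p = 0.0556, the smallest p that each blocked design allows. These 2 values and the 3 without a CLP replicate are 5 of the 10 that lost the threshold, and none of the 5 could have passed it. Unknown depth limits every statement on a missing peak.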

Other observations

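Genes of the type 2 list that were chosen after their values were seen showed other patterns between the populations. Il3 and Csf2, cytokine genes that lie further along chromosome 11, lie close together and had 1 CD4SP-specific interval each in their overlapping windows, with 1 and 2 peaks in the CD4SP libraries and none in the 2 NKT, 3 CLP and 2 ILCP libraries. Il2 had 1 NKT-specific interval, with 0 and 0 peaks in CD4SP, 1 and 1 in NKT, and 1 in each of the 5 bone marrow libraries. Ccr8, a chemokine receptor of Th2 cells, had 7 and 8 peaks in CD4SP and 8 and 8 in NKT, against 0, 1 and 1 in CLP and none in ILCP. Maf, a transcription factor that acts on Il4, had 2 and 2 peaks in CD4SP, 4 and 4 in NKT, 0, 1 and 1 in CLP, and 2 and 2 in ILCP, with more in every NKT than CD4SP library and in every ILCP than CLP library. No test was made of these values.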
